A study of Caenorhabditis elegans with 2 samples.

Results

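The Myc, Mad and Max family of C. elegans was taken as 6 genes, mdl-1, mxl-1, mml-1, mxl-2, mxl-3 and hlh-30, out of 19973 protein-coding genes in the annotation. The family was selected on measured values of these same data, since mdl-1 lies at 1 of the widest LIN-40 peaks, so the widths, signals and ranks given here are a description without a test. The genes encode basic helix-loop-helix leucine zipper (bHLH-zip) transcription factors, which bind DNA as dimers at the E-box CACGTG. In animals, Max-like proteins are the common partners: Myc-like partners are mostly linked to activation and Mad-like partners to repression of the same E-box genes. In C. elegans, MDL-1 is the Mad-like protein and MXL-1 its Max-like partner, MML-1 is a Myc- and Mondo-like protein and MXL-2 its Mlx-like partner, and MXL-3 and HLH-30, the ortholog of mammalian TFEB, act in opposite directions on lysosomal lipase genes and fat use as food supply changes.

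The data are chromatin immunoprecipitation sequencing (ChIP-seq) of LIN-40 in whole hermaphrodites of strain OP485, a transgenic line in which LIN-40 carries GFP-FLAG at its C-terminal end. LIN-40 is an MTA-like subunit of the NuRD chromatin remodelling and histone deacetylase complex. The 2 samples, biological replicates 3 and 4, were young adults grown for 57.25 hours from synchronization at the starved L1 stage, and both were precipitated with an antibody against GFP. Both form 1 group, with no library of another genotype or stage to compare them with, and a signal from whole animals cannot be assigned to a tissue.

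The deposited lists give regions with a summit and a signal, a height set by the authors' peak caller whose scale is not given in the sources used here. A list of 3066 regions passed the authors' irreproducible discovery rate (IDR) filter, and these were the 3066 strongest of the 30000 regions called on the pooled replicates; the weakest had a signal of 99.97 and the median was 164. A further list of 30000 regions was called on each replicate alone. These long lists hold background regions by design, so a weak entry in them is not by itself a peak. Read depth is unknown, because the lists hold no read counts. A region was given to a gene when its summit lay between 5000 bp upstream of the gene's most upstream start and the gene's end.

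LIN-40 peaks lay at 4 of the 6 genes. There were 4 IDR summits at mdl-1, 3 at mxl-3, 5 at hlh-30 and 1 at mml-1, and none at mxl-1 or mxl-2. Over all protein-coding genes, 20.2% had an IDR summit in a window built the same way, and the family's 4 of 6 is read only as a description because the genes were chosen with these peaks in view. Windows of 1000 bp upstream to 200 bp downstream of any start left 2 of the 6, mdl-1 and hlh-30, with 1 summit each. At least 3 summits were found at 3 of the 6 genes, against 1.36% of all protein-coding genes. This count too is only a description, and it depends on the window. With 2000 bp upstream, mdl-1 and mxl-3 kept 1 summit each and hlh-30 kept 5. In both dimer pairs the peaks were at the gene of the Mad-like or Myc-like partner, mdl-1 or mml-1, and not at that of the Max-like or Mlx-like partner, mxl-1 or mxl-2. These are only 2 pairs, and most protein-coding genes had no IDR summit. The gene of another Max-like protein, mxl-3, had 3. The 13 summits fell in 11 distinct intervals, because pairs of summits at mdl-1 and at hlh-30 shared 1 interval each.

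The DNA under 6 of these summits shows the feature that recurred in the family, the palindromic E-box CACGTG. Each run reads 5′ to 3′ on the strand of its gene and covers 100 bp to either side of the summit, except that the mdl-1 promoter run stops at the base before the gene. Capitals mark CACGTG and the GA repeat GAGAGA, which reads TCTCTC from the other strand. Sequences are from the RefSeq WBcel235 assembly, the same as ce11. The first 5 hold CACGTG, 1 or more for each gene with a peak, and the last, from hlh-30, is shown as the contrast with TCTCTC and no CACGTG.
mdl-1 distal upstream peak (chrX:6737693-6737893, plus strand): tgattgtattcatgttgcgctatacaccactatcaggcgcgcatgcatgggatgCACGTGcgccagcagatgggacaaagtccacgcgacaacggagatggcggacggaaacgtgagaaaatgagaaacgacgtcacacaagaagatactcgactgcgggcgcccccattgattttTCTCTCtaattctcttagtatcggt
mdl-1 promoter peak (chrX:6742178-6742350, plus strand): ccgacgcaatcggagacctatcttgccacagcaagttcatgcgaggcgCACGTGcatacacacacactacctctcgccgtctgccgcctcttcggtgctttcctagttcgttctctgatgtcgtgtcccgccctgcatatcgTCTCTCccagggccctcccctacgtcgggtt
mml-1 upstream peak (chrIII:7376542-7376742, minus strand): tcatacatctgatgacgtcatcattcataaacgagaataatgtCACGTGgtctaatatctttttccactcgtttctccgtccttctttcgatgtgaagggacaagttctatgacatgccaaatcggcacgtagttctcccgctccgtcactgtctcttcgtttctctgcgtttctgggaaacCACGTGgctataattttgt
mxl-3 upstream peak (chrX:13353621-13353821, minus strand): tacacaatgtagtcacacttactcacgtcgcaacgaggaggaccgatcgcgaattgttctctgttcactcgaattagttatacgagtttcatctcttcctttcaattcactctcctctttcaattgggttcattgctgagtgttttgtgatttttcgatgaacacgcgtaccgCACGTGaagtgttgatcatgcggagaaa
hlh-30 intronic peak with E-box (chrIV:4025989-4026189, minus strand): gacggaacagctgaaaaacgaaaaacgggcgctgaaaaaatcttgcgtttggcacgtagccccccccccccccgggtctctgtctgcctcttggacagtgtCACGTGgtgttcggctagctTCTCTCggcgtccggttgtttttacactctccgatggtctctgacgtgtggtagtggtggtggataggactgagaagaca
hlh-30 intronic peak without E-box (chrIV:4028212-4028412, minus strand): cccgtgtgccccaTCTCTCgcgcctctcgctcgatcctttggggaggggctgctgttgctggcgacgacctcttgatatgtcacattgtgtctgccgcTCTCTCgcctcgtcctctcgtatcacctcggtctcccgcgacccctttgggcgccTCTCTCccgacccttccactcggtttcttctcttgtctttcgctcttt

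mdl-1 (WBGene00003163, chromosome X, plus strand, 6742351 to 6743899), the Mad-like gene, carried the strongest peak of the family. In windows with 5000 bp upstream it also had the most IDR summits per 10 kb, 6.11, where the genome as a whole had 0.306. With 2000 bp upstream mdl-1 kept 1 of its 4 summits, so this density depends on the window. No other protein-coding gene lay in its 6549 bp window. The strongest summit stood 4558 bp upstream of the start at position 6737793, in an intergenic interval of 749 bp. Its signal was 427 in the pooled list, rank 255 of 3066, with 206 in replicate 3 and 223 in replicate 4. The nearest annotated start was that of the neighbour R03E9.2, at 4492 bp. The same interval held a weaker summit 4357 bp upstream, at 112. The replicates disagreed there, with 26.3 in replicate 3 and 119 in replicate 4. A further summit, 3120 bp upstream, had a signal of 120, with 63.7 in replicate 3 and 60.2 in replicate 4. The last was the promoter peak, 73 bp upstream of the start and 768 bp wide, which ran into the gene. Its signal was 214, rank 994, with 123 in replicate 3 and 99.9 in replicate 4, so here replicate 3 was the higher. The stretch within 100 bp of the promoter summit, which runs past the printed bases, was rich in GC at 60.7%, above 98.9% of all IDR summits. The family's median was 43.8%, against 42.8% over all IDR summits.

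The wide peak by which the family was chosen begins inside mdl-1 and ends past it. It spans 2017 bp, from 6742808 to 6744824, width rank 20 of 3066 in the IDR list. Its main summit lay 117 bp past the end of mdl-1, in the non-coding RNA gene R03E9.10, and so just outside the window. That summit had a signal of 438, rank 242, with 197 in replicate 3 and 240 in replicate 4, slightly above the strongest summit inside the window. A second summit of the same interval, 320 bp past the gene end, had 112, with 24.7 in replicate 3 and 136 in replicate 4. The large gap between the replicates at this secondary summit resembles that at the secondary summit 4357 bp upstream. Another pooled summit of the wide interval fell in the intron of mdl-1, 723 bp after the start, at 96.5 and rank 3193, just under the weakest IDR region. In the replicates' own lists the region at the main summit was narrower than in the pooled list, 821 bp in replicate 3 and 883 bp in replicate 4. Farther upstream, IDR summits at 5743 bp and 6710 bp from the start, with signals of 197 and 111, lay outside the window.

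mxl-1 (WBGene00003509, chromosome V, plus strand, 11244839 to 11245926) encodes the Max-like partner of MDL-1. No region of the IDR, pooled or replicate lists had its summit in the 6088 bp window, which also holds ima-1 and pgap-1. An empty window was common: 54.4% of protein-coding genes had no pooled summit and 47.4% had none in the pooled and both replicate lists. On chromosome V 12.8% of protein-coding genes had an IDR summit, the lowest share of the 6 chromosomes. The pair MDL-1 and MXL-1 thus had 4 IDR summits at the gene of one partner and no listed region at that of the other.

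mml-1 (WBGene00003378, chromosome III, minus strand, 7370130 to 7374731) encodes the Myc- and Mondo-like protein. It had 1 IDR summit, at position 7376642 in the intergenic stretch 1911 bp upstream of the start. The interval was 448 bp wide and its signal was 267, rank 653. The replicates gave 135 in replicate 3 and 135 in replicate 4, a ratio of 0.998, the closest agreement of the 13 summits. Of its 16 pooled regions this was the strongest, and all others had signals of 45.2 or less; the highest of those lay 426 bp upstream, so the peak stood alone in a window of weak regions. A further IDR summit, 432 bp past the gene end, had a signal of 159 and lay outside the window. T20B12.7 and hmg-4 share the window, but the start nearest to the peak was that of mml-1.

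mxl-2 (WBGene00003510, chromosome III, minus strand, 186949 to 188131) encodes the Mlx-like partner of MML-1. It had 6 pooled regions and none that passed IDR. The strongest, 538 bp upstream of mxl-2 but 169 bp upstream of the divergent gene ubc-20, had a signal of 72.8 at rank 4534. In the same place replicate 4 had 45.5, and replicate 3 had a pair of regions at 32.4 and 26.1. The next, at 65.6, lay 66 bp inside cox-17. Both regions were thus nearer to the start of a neighbour than to that of mxl-2. Of the 6 regions of each replicate the highest had 32.4 in replicate 3 and 45.5 in replicate 4, so neither replicate alone showed a peak of the height seen at mml-1.

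mxl-3 (WBGene00003511, chromosome X, minus strand, 13349639 to 13350804) encodes a Max-like protein that, in fed worms, represses lysosomal lipase genes. It had 3 IDR summits, and no other protein-coding gene lay in its window of 6166 bp. The strongest, 2917 bp upstream at 13353721, was intergenic and 443 bp wide, with a signal of 212, rank 1012. Replicate 3 gave 83.5 and replicate 4 gave 125 at this summit. The summit 4277 bp upstream had 153, with 105 in replicate 3 and 57.8 in replicate 4. The order of the replicates was thus opposite at these neighbouring peaks. The summit in the 3′ UTR, had 139, with 40.4 in replicate 3 and 94.3 in replicate 4. Its interval was 992 bp, width rank 124, the widest among those with an IDR summit inside a member's window, and a stronger summit of that interval, at 205, lay 110 bp past the gene end. The promoter itself had no IDR summit: pooled regions 103 bp inside and 126 bp upstream of the start had signals of 84.5 and 72.0, both under the IDR minimum. Beyond the upstream edge of the window, a summit at 5752 bp had a signal of 303, higher than any inside it.

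hlh-30 (WBGene00020930, chromosome IV, minus strand, 4014793 to 4034951) encodes the TFEB ortholog, which drives autophagy and lysosomal genes. It is the longest of the 6 genes, 20159 bp with 10 distinct annotated starts. All 5 of its IDR summits lay in introns, and none lay upstream of the gene. The strongest, at 4020046, had a signal of 264, rank 665, with 149 in replicate 3 and 112 in replicate 4. It stood 1002 bp upstream of the nearest internal start. A peak at 4024359 was close to it in height, at 258, with 136 in replicate 3 and 120 in replicate 4. A secondary summit of that interval had only 104, with 24.0 in replicate 3 and 65.3 in replicate 4. The peak at 4028312 had 216, with 93.7 and 122 in replicates 3 and 4, and lay 185 bp upstream of an internal start. The peak at 4026089 had 155, with 56.2 in replicate 3 and 98.7 in replicate 4, and lay 974 bp after an internal start. Around the most upstream start there was no region of IDR height; the nearest strong pooled region, 3752 bp inside the gene, had 82.8.

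**Figure D1:**
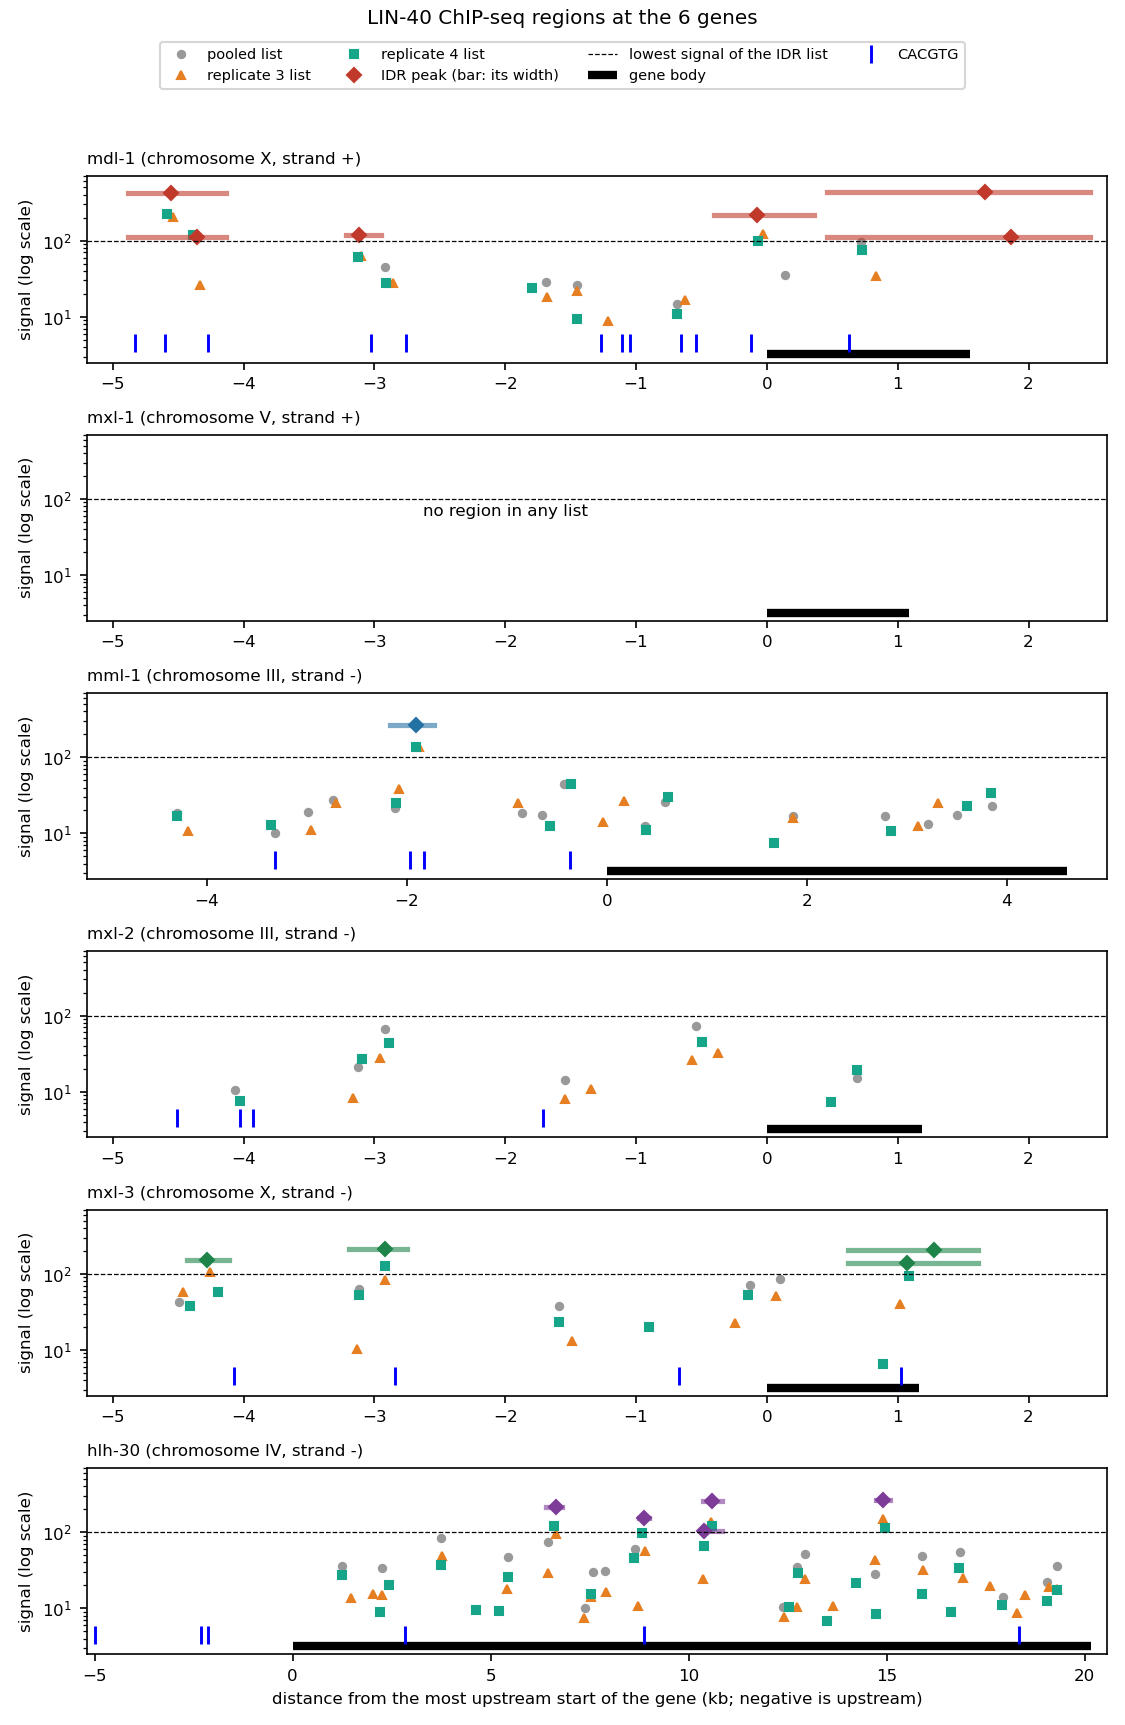
Signal (y axis, log scale) of each region against the distance of its summit from the gene's most upstream start (x axis, kb), for the pooled list, both replicate lists and the IDR list, whose bars span the deposited intervals; blue ticks are CACGTG and the dashed line is the lowest IDR signal, 99.97. The IDR peaks of mdl-1 and mxl-3 lie upstream and at the gene's end, those of hlh-30 inside the gene, mml-1 has 1, mxl-2 has weak regions only and mxl-1 has none.

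By their strongest peak the genes ranked 457 for mdl-1, 1157 for mml-1, 1177 for hlh-30 and 1720 for mxl-3 among the 4038 protein-coding genes with an IDR summit. The pooled signals of mml-1 and hlh-30 were close, 267 and 264, and their order differed between the replicates. In replicate 3 mml-1 had 135 and hlh-30 149, and in replicate 4 they had 135 and 112. The order of these 2 genes is therefore not settled. By number of summits, 0.18% of protein-coding genes had as many as hlh-30 or more, 0.46% as many as mdl-1 and 1.36% as many as mxl-3. Windows differ in length, and hlh-30 with 25159 bp had 1.99 IDR summits per 10 kb, fewer than mdl-1 at 6.11 and mxl-3 at 4.86. These densities hold for 5000 bp upstream only. mml-1 had 1.04 per 10 kb although its pooled regions were as dense as those of mdl-1, 16.7 against 15.3 per 10 kb. For comparison, the genome held 2.99 pooled regions per 10 kb.

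**Figure D2:**
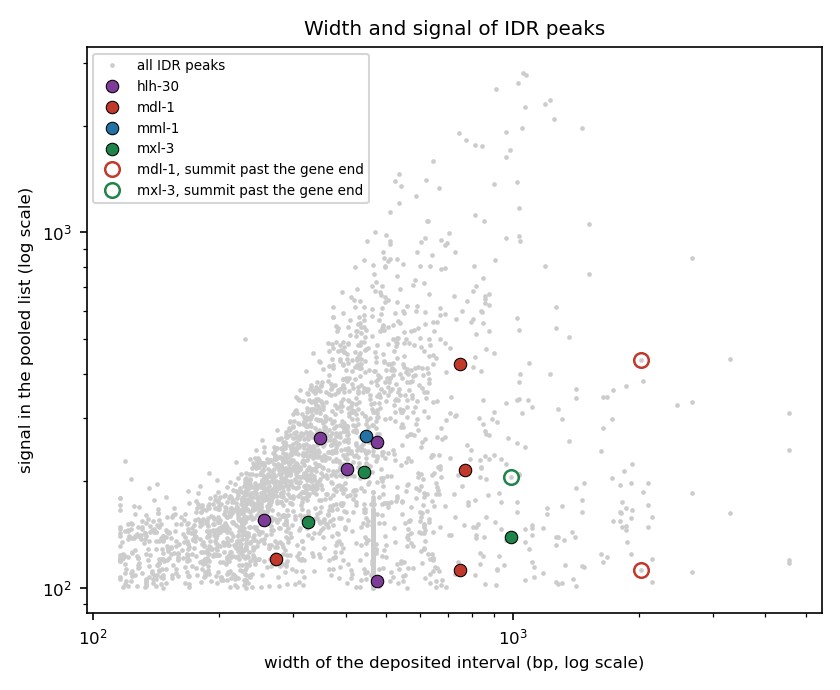
Pooled signal against interval width for all 3066 IDR peaks (grey) and the peaks of mdl-1, mml-1, mxl-3 and hlh-30 (filled), on log scales; open circles are summits of intervals that reach into a window but peak past the gene end. The open mdl-1 circles at 2017 bp lie far to the right of most peaks, while the filled points of mml-1 and hlh-30 sit within the main cloud of widths.

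Every one of the 13 summits overlapped a region in both replicates' own lists, against 3045 of 3066 IDR peaks, and in both replicates the matching summit lay within 100 bp. A place among the strongest 3066 regions of both replicates was held by 9 of 13, and by 75.6% of all IDR peaks. The ratio of replicate 4 to replicate 3 had a median of 1.09 in the family, from 0.549 at the far upstream mxl-3 peak to 4.53 at the secondary mdl-1 summit, against a median of 1.15 over all IDR peaks. Replicate 4 was the higher at 7 of 13 summits, 53.8%, and at 2222 of 3066 IDR peaks, 72.5%. The middle 90% of all IDR peaks had ratios from 0.722 to 1.94, and 4 of the family's summits fell outside it: the far upstream one of mxl-3 below, and above it the 3′ UTR summit of mxl-3 at 2.33 and the secondary summits of mdl-1 and hlh-30 at 4.53 and 2.72. Both secondary summits share an interval with a stronger one nearby, and at the strongest peak of each gene the ratio was 1.09 for mdl-1, 0.998 for mml-1, 1.499 for mxl-3 and 0.752 for hlh-30.

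**Figure D3:**
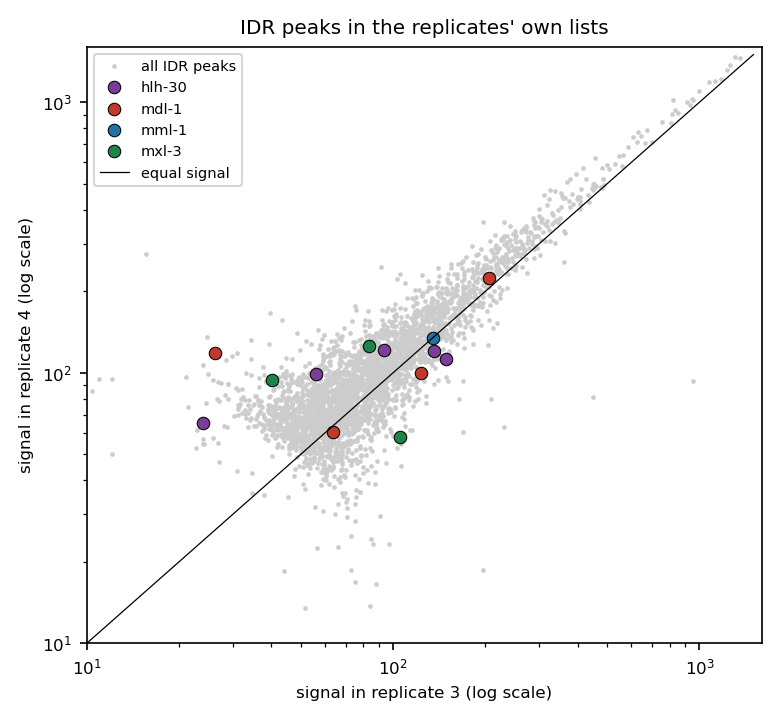
Signal of each IDR peak in replicate 3 (x axis) and replicate 4 (y axis), log scales, for all IDR peaks (grey) and those of the family (coloured); the line marks equal signal. The secondary summits of mdl-1, at 26.3 and 119, and hlh-30, at 24.0 and 65.3, sit to the left of the cloud, and the mml-1 peak lies on the line.

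Most of the family's summits lay farther from a gene start than the median IDR summit. The median distance from a summit to the nearest protein-coding start was 2505 bp for the 13 summits and 611 bp for all IDR summits. All but the mml-1 summit lay in windows without another protein-coding gene, and the summits behind the 611 bp were not matched for this. Only 3 of 13 were within 1000 bp of a start, those 73 bp from mdl-1 and 185 and 974 bp from internal hlh-30 starts, compared with 1843 of 3066. By annotation 7 summits were intergenic, 5 in introns, all of hlh-30, and 1 in a 3′ UTR. Among all IDR summits 61.6% were intergenic, 22.9% in introns and 1.73% in 3′ UTRs.

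The E-box CACGTG was present within 100 bp of 7 of the 13 summits, 53.8% with an exact (Clopper-Pearson) 95% interval of 25.1% to 80.8%, and of 315 of 3066 IDR summits, 10.3% with an interval of 9.22% to 11.4%. The motif is its own reverse complement and was counted once per site. It was found at 3 of 4 summits of mdl-1, at the 1 of mml-1, at 2 of 3 of mxl-3 and at 1 of 5 of hlh-30, the lowest share of the 4 genes. In the printed sequences it began 46 bp before the distal mdl-1 summit, 52 bp before the mdl-1 promoter summit, 73 bp after the mxl-3 summit and 1 bp after the hlh-30 summit, while mml-1 had a copy on either side, 57 bp before and 82 bp after. A copy at the remaining mdl-1 summit, 3120 bp upstream, straddled the edge of the searched stretch and was not counted. The main summit of the wide mdl-1 peak, outside the window, also had a CACGTG, 21 bp after it. Summits that share a gene or an interval share sequence, so the interval covers counting error only and treats neighbours as separate; counted per interval, 7 of 11 in the family and 452 of 2901 in all held the motif, 63.6% and 15.6%. Within 50 bp the motif was at 3 of 13 family summits, 23.1% with an exact interval of 5.04% to 53.8%. The share over all IDR summits, 6.75%, lay inside that interval.

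The share over all IDR summits was 10.2% on chromosome X and 10.3% on autosomes, 8.57% within 1000 bp of a protein-coding start and 12.8% farther away, and 9.78% above and 10.8% below the median signal. The shares of these 6 subsets ran from 8.57% to 12.8%, each split on 1 feature alone. The family's peaks were on X in 7 of 13 cases and mostly far from starts. Whether their place accounts for the family's share was not tested. At the summits of other gene groups CACGTG was found in 1 of 11 for other bHLH genes, 1 of 24 for nutrient and longevity regulators and 3 of 26 for autophagy and lysosome genes. The looser motif CANNTG, of which CACGTG is 1 form, was within 100 bp of 11 of 13 family summits and 59.8% of all. GAGAGA was at 7 of 13 and at 41.3% of all. It was at all 5 hlh-30 summits, with 6 matches (overlapping ones included) at the strongest, and at 2 of 4 of mdl-1, but at none of mml-1 or mxl-3. A match is a string of letters and not a measured binding site.

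**Figure D4:**
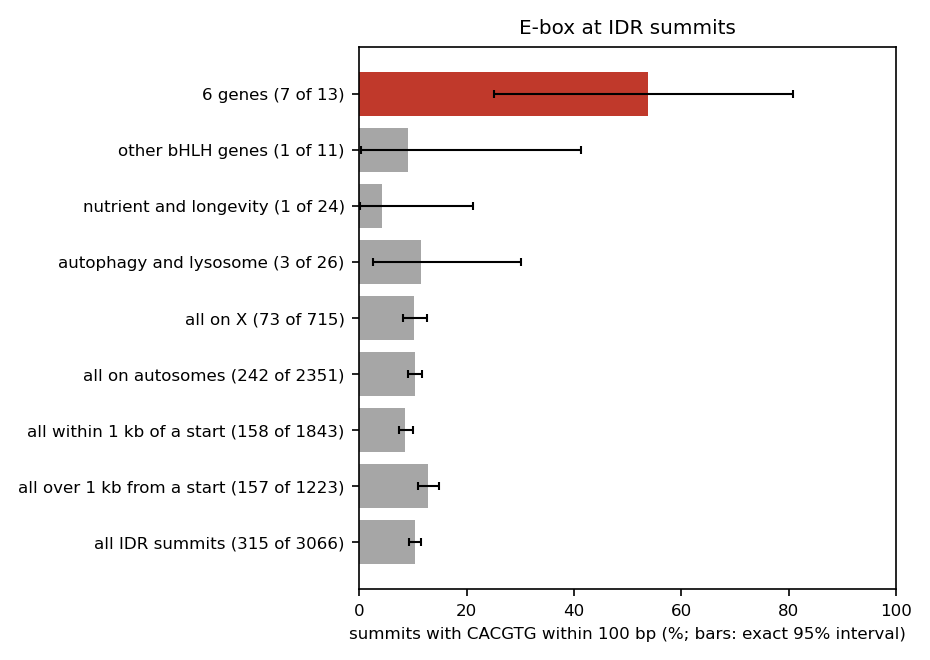
Share of IDR summits with CACGTG within 100 bp (x axis, %), for the 6 genes, the other gene lists and subsets of all IDR summits; error bars are exact 95% intervals, which cover counting error only. The bar of the 6 genes stands at 53.8% with a wide interval from 25.1% to 80.8%, and the other bars lie between 4.17% and 12.8%.

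The E-box was dense across the whole mdl-1 window, not only under the peaks. The window held 12 copies of CACGTG, 18.3 per 10 kb, against 1.77 per 10 kb of genome and a median of 1 copy per protein-coding window. Only 4 of 19973 protein-coding windows, mdl-1 included, were as dense or denser. The copies ran from 4828 bp upstream to 631 bp inside the gene. mxl-2 and mxl-3 had 4 copies each, 6.47 and 6.49 per 10 kb, and about 2.2% of protein-coding windows were as dense or denser (2.26% and 2.23%). mml-1 also had 4, or 4.17 per 10 kb, hlh-30 had 6, or 2.38 per 10 kb, and mxl-1 had none. mxl-2 had as many copies as mxl-3 and no IDR summit.

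Genes elsewhere with the most similar strongest peak were looked up by the distance over log2 width, pooled signal and both replicate signals, with no claim about function. For mdl-1 these were gpb-1, lin-59 and ztf-26, at distances of 0.198 to 0.245. The gpb-1 peak, for example, was 806 bp wide with 417 pooled, 214 in replicate 3 and 201 in replicate 4. For mml-1 they were T24D3.2, K05F1.6 and pab-2, at 0.074 to 0.131. For mxl-3 they were Y43F8B.3, WBGene00017309 and spat-2, at 0.088 to 0.222, and for hlh-30 taf-12, T02E1.2 and swsn-3, at 0.142 to 0.166. Each of the 4 genes had matches within 0.245, and other LIN-40 peaks had nearly the same height and width.

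The wider pathway was read from 3 gene lists. Of 35 other bHLH genes 25 had no pooled summit at all, as had 54.4% of all protein-coding genes. An IDR summit was found at 7 of the 35, 20.0%, beside a background of 20.2%. The median of the strongest signal was 146 in these 7, against 190 over all genes with a summit and 266 in the 4 family genes. The strongest was at hlh-27, at 1055, but its summit was nearer to the start of ins-13. hif-1, the hypoxia-inducible factor, had 614 and 3 summits, hlh-11 had 470, and hlh-13 had 146. With 2000 bp upstream in place of 5000 bp, 3 of the 35 and 2878 of all 19973 genes had an IDR summit.

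Among 25 nutrient and longevity regulators 11 had an IDR summit, 44.0%, with a median strongest signal of 278. The median window of this list was 12162 bp against 7027 bp over all genes, and a longer window can hold more summits. The strongest were pdk-1 at 520, aak-2, a catalytic subunit of AMP-activated kinase, at 388, rheb-1, a small GTPase upstream of TOR, at 354, and daf-12, a nuclear hormone receptor, at 284. Among 37 autophagy and lysosome genes, the kind that HLH-30 and MXL-3 regulate, 16 had one, 43.2%, with a median strongest signal of 301 and a median window of 7610 bp. The strongest were epg-9 at 723, lipl-2 at 666, lgg-2, an Atg8-family gene, at 553 and atg-7 at 481. The summit given for lipl-2, a lysosomal lipase gene, was nearer to the start of ztf-7, and that for atg-7 nearer to klc-1. At least 3 summits were seen at 3 of the 25 nutrient and longevity regulators and 3 of the 37 autophagy and lysosome genes. The same held for 1 of the 35 other bHLH genes, 3 of the 6 family genes and 1.36% of all protein-coding genes. Window lengths were not matched between these groups, so the counts are only a description.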

How the data were processed

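The authors deposited region lists on builds ce10 and ce11, per the labels; ce11 was used here, and of ce10 only the number of IDR regions. Per the file headers and listings, 1 list was called per replicate and 1 on the pool, each against a control alignment. No source used here names the caller, the aligner or the IDR threshold. The authors gave regions a signal and a −log10 q-value; the latter was at its maximum of 4.13 in all 3066 IDR regions and ranked nothing. Pooled regions mostly had a fixed width of 464 bp (89.2%), so width is informative mainly for the strongest.

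Summits were matched to Ensembl release 115 genes on WBcel235 with Python 3.11.15, pandas 2.3.3, NumPy 2.4.6 and SciPy 1.17.1; the window counts were checked on simulated data. Strongest peaks, motifs (both strands) and exact intervals at the 95% level were computed from there, with no test, as there is 1 group. Named were all 6 genes, the 4 strongest of each list, the 3 most similar genes per member and the gene with the start nearest to a summit. The members and lists were chosen with earlier results of these data known. atg-11 matched no gene in the annotation by symbol, and stays out of its list. Alternatives changed the window, threshold, replicate, summit counting and motif stretch.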

Additional observations from a re-analysis of the deposited data

How the results depend on the processing

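Of 80 alternative values, 49 stayed within the limits set for the same result and 31 moved. Reversal of direction was not scored. The moved values include each gene's strongest signal in 1 replicate alone. Replicate signals run on a lower scale than pooled ones, so that label says nothing about the peaks. The count of 4 family genes with an IDR summit fell to 2, mdl-1 and hlh-30, in windows of 1000 bp upstream to 200 bp downstream of any start, and their 13 summits to 2; the summits numbered 8 with 2000 bp upstream and 7 in the stronger 50% of the list. Over all genes 4038 became 1979 in the promoter windows, 2436 in the stronger 50% and 2123 by nearest start only. The other bHLH genes went from 7 to 3 under each of these and with 2000 bp upstream. The nutrient list went from 11 to 6 in promoter windows and to 18 with a list as long as that on ce10 (4635 regions), an alternative added after the data were seen; the autophagy list went from 16 to 9 in promoter windows and to 8 by nearest start. With the ce10 length mxl-2 gained 1 summit, so 5 family genes had 1 or more, and mxl-1 still had 0. Over all protein-coding genes that longer list gave 5246 with a summit, 26.3%, so the rise was general. The widest mdl-1 peak, 768 bp, became 2017 bp where any overlap counts, also added later. Within 50 bp the E-box share was 23.08%, with an exact interval of 5.04% to 53.81% that holds the 6.75% over all IDR summits. In the list of 1 replicate alone, weak entries included, the widest region was 514 to 531 bp at mdl-1 and 450 to 635 at mxl-3. It was 450 to 480 bp at mml-1 and at hlh-30. Widths of 450 and 480 bp are the fixed widths of most regions in replicates 3 and 4 (94.27% and 93.55%), not peak widths. At the mml-1 peak the replicate regions were 219 and 290 bp wide, and at the strongest hlh-30 peak 244 and 298 bp. The strongest signal was 205.7 to 223.4 at mdl-1, 135.0 to 135.2 at mml-1, 105.3 to 125.2 at mxl-3 and 121.8 to 149.1 at hlh-30. The median signal of the pooled list was 24.5, against 14.09 in replicate 3 and 16.17 in replicate 4, so levels are not compared across lists. No paired analysis was possible because both samples belong to 1 group. Read depth is unknown and limits what a missing peak means.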
